A study of Mus musculus with 6 samples.

Results

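This account concerns 10 transcripts that encode brakes on mTORC1 or on cap-dependent translation: Ddit4, Tsc1, Tsc2, Sesn1, Sesn2, Sesn3, Deptor, Eif4ebp1, Eif4ebp2 and Pdcd4. They are 10 of the 23481 genes in the deposited table of read counts and were taken by symbol. Ddit4 and Pdcd4 were picked because their levels had been seen to be higher in the libraries labelled shAsns-1 and shAsns-2, so their differences from the control hairpin are given as a description, without a test. The other 8 were listed for what their proteins do, though with earlier results of these data known. All 10 passed the filter on low counts.

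The labels call the cells 4T1, a mouse mammary carcinoma line, and the name of the deposited table gives 4T1_T; they were infected to express 1 of 3 short hairpin RNAs. By their labels shAsns-1 and shAsns-2 target Asns, whose enzyme makes asparagine, and shRenilla, the control, is named for a luciferase with no gene in the mouse. All of them were grown in DMEM with added non-essential amino acids, a supplement that usually contains asparagine. There were 2 libraries for every hairpin, A and B, but shAsns-1 B has 0 reads in every row and was left out, so shAsns-1 is represented by 1 library. Whether A and B come from different cultures is not stated, so the p-values measure the spread between libraries, which may be technical. The labels do not describe the infection time, any selection or whether the cells were clones.

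mTORC1 is a protein kinase complex that sits on the lysosome and promotes growth when amino acids, growth factors and energy are plentiful. The small GTPase Rheb switches it on, and the Tsc1-Tsc2 complex keeps Rheb off. Active mTORC1 phosphorylates S6 kinases, which mark Pdcd4 for destruction, and the 4E-BPs, which then let go of the cap-binding factor eIF4E. Most of this control acts on proteins and their phosphorylation, whereas only messenger RNA was measured here.

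Asns itself stood at 58.7 CPM (reads per 1000000 reads assigned to genes) in shRenilla A, 56.9 in shRenilla B, 45.7 in shAsns-2 A and 44.2 in shAsns-2 B. The shAsns-2 libraries were both below the control, with a log2 fold change of -0.34 that did not pass (SE 0.0882; edgeR's quasi-likelihood test, adjusted p = 0.216, over 12457 genes). The library labelled shAsns-1 held 110.4 CPM, which goes against its label (log2 fold change 0.92, SE 0.101, adjusted p = 6.27e-05). Gene reads per library ranged from 10244753 to 15955168. The library labelled shAsns-1 also had reads at more genes than the others (17672 against 15052 to 15392), and its log2 fold changes against shRenilla were lower for transcripts richer in GC (Spearman -0.39 across 5572 well-expressed genes, which are not independent replicates). The epithelial markers Epcam, Krt8, Krt18, Krt7, Krt14 and Cdh1 summed to 1093 to 1138 CPM in shRenilla and shAsns-2 and to 912 CPM in that library. Cdh1 differed most in CPM, at 299 there and 394 to 432 in the others. Epcam, Krt7 and Krt14 were lower there too, and Krt8 was slightly lower (206 against 213 to 223 CPM). Krt18 (309 CPM) was within the range of the others (288 to 336 CPM). Of 6 leukocyte markers Lyz2 had 0 reads in all libraries (sum 4.32 to 6.51 CPM), 4 globin genes were at 0, and 3 endothelial markers summed to 0.288 to 1.24 CPM. The 5 fibroblast markers summed to 28.9 to 29.9 CPM and to 39.2 CPM in the library labelled shAsns-1. Nearly all of this sum was Pdgfra (28.5 to 29.6 CPM, and 38.1 CPM in that library). Pdgfrb, Col1a1, Col3a1 and Dcn were each at 0 to 0.586 CPM in every library. Between libraries, the root mean square difference of log2 CPM was 0.112 for shAsns-2 A and B and 0.160 for shRenilla A and B, while shRenilla A lay nearer to shAsns-2 B (0.117) than to shRenilla B. The library labelled shAsns-1 was the most distant, at 0.204 to 0.244 from each of the others. It also had the largest share of reads not aligned, 23.2% against 17.9 to 20.1%.

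Per kilobase of exon, the 4E-BP transcripts were the most abundant brakes and the sestrins Sesn3 and Sesn2 the least. Averaged over the 5 libraries, Eif4ebp1 stood at 30.1 RPKM (reads per kilobase of exon and 1000000 gene reads, range 26.1 to 33.3) and Eif4ebp2 at 21.1 RPKM (19.6 to 23.9). Deptor followed at 11.8 RPKM, Ddit4 at 9.13, Sesn1 at 5.01, Tsc2 at 4.61, Tsc1 at 4.11, Pdcd4 at 3.56, Sesn3 at 2.13 and Sesn2 at 1.29. The ranges of Deptor and Ddit4 overlapped, as did those of each pair of neighbours from Sesn1 through Tsc2 and Tsc1 to Pdcd4. Every other neighbour in that order was separated in all 5 libraries. Eif4ebp1 lay above 91.3% of the 18908 genes with reads and a known length, and Sesn2 above 47.7%. The order depends on the length used: with the longest annotated transcript in place of all exons, Sesn1 (5.24) came after Tsc2 (7.07) and Tsc1 (6.31), and Sesn3 rose to 3.57 and overlapped Pdcd4.

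**Figure D1:**
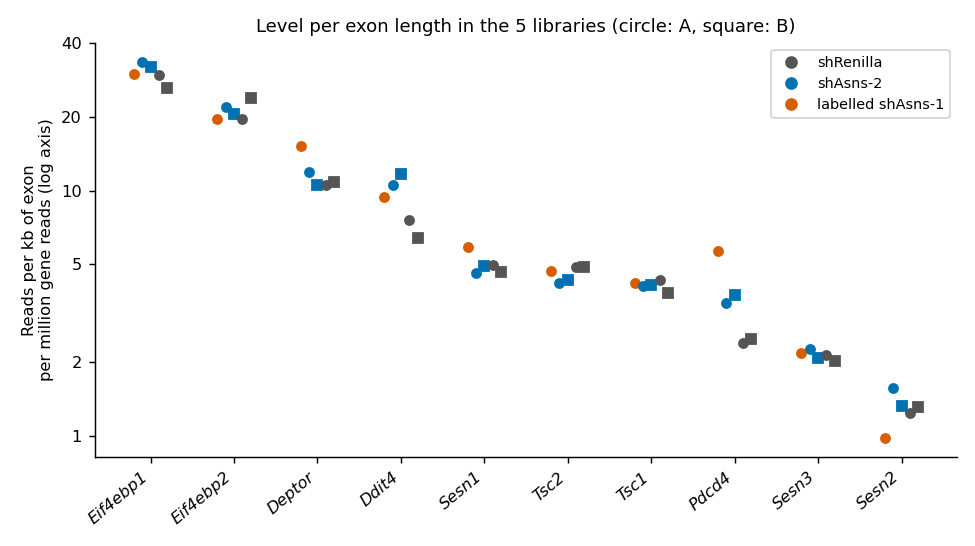
Levels of the 10 transcripts in reads per kilobase of exon and 1000000 gene reads (log axis), 1 point for each of the 5 libraries, colored by hairpin. Eif4ebp1 (26.1 to 33.3) is highest and Sesn2 (0.983 to 1.57) lowest, and the spread over libraries is widest for Pdcd4 (2.40 to 5.70) and Ddit4 (6.38 to 11.7).

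Ddit4, also called REDD1, is a stress-induced protein that restrains mTORC1 through the Tsc1-Tsc2 complex. Its gene (ENSMUSG00000020108) is on the minus strand of chromosome 10, bases 59949669 to 59951834 of build GRCm38 (mm10), with 1755 bases of exon. The transcript stood at 13.3 CPM in shRenilla A (213 reads), 11.2 in shRenilla B (160 reads), 18.4 in shAsns-2 A (193 reads) and 20.5 in shAsns-2 B (285 reads). The library labelled shAsns-1 held 16.6 CPM (170 reads, 95% exact Poisson interval 14.2 to 19.3, counting error only). The shAsns-2 libraries and the library labelled shAsns-1 were thus all above both shRenilla libraries, which is the pattern for which the gene was picked. Of all tested genes, 16.6% were above both in the shAsns-2 libraries and 38.8% in the library labelled shAsns-1. The share above both in all of these libraries at once was not counted. The group means were 19.5 ± 1.48 CPM in shAsns-2 and 12.3 ± 1.52 CPM in shRenilla (SD, n = 2 each). The fitted ratio to shRenilla was 1.62-fold in shAsns-2 and 1.34-fold in the library labelled shAsns-1. The shAsns-2 log2 difference, 0.69, was 0.84 without shRenilla A and 0.57 without shRenilla B, and with the GC trend removed the value in the library labelled shAsns-1 was 0.50.

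Pdcd4 binds the helicase eIF4A and keeps it from unwinding the leaders of messenger RNAs. Its gene (ENSMUSG00000024975) is on the plus strand of chromosome 19, bases 53892231 to 53929860, with 3135 bases of exon. The transcript stood at 7.52 CPM in shRenilla A (120 reads), 7.77 in shRenilla B (111 reads), 10.9 in shAsns-2 A (114 reads), 11.8 in shAsns-2 B (164 reads) and 17.9 in the library labelled shAsns-1 (183 reads, interval 15.4 to 20.6). The labelled groups did not overlap, and the highest level was in the library in which Asns was highest as well. Levels above the control were the reason for picking Pdcd4. Among all tested genes, 16.6% were above both shRenilla libraries in both shAsns-2 libraries, and 38.8% in the library labelled shAsns-1. The share of all genes with the labelled groups in the same order as Pdcd4 was not counted. The fitted ratio to shRenilla was 1.52-fold in shAsns-2 and 2.32-fold in the library labelled shAsns-1. Pdcd4 has a low GC content (43.1% over its longest transcript), and with the GC trend removed its log2 difference in that library was 1.14 in place of 1.21.

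The order of the libraries differed between these transcripts. Ddit4 was highest in shAsns-2, and its fitted log2 difference between shAsns-2 and the library labelled shAsns-1 was 0.28. With the GC trend removed it was 0.16. The Poisson interval of Ddit4 in the library labelled shAsns-1 (14.2 to 19.3 CPM) overlapped those of shAsns-2 A (15.9 to 21.2 CPM) and shAsns-2 B (18.2 to 23.0 CPM). Pdcd4 was highest in the library labelled shAsns-1, with a log2 difference of -0.61 between the same groups, or -0.53 with the GC trend removed. Both genes were picked on levels in these libraries, so the differences carry no test.

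The DNA before the start sites of these 2 genes is shown because their transcripts were both higher in shAsns-2 and in the library labelled shAsns-1. Promoter sequences were taken from RefSeq (GRCm38.p6), which had 10 entries for 8 of the 10 members. There was no entry for Deptor or Eif4ebp1. Each line gives the 250 bases that end just before the RefSeq start, on the gene's strand, with matches to the searched motifs in capitals. For Ddit4 that start lies inside the gene bounds given above, which come from GENCODE and reach base 59951834. Part of the printed Ddit4 sequence therefore lies within those bounds.
Ddit4, chr10:59951771-59952020, minus strand: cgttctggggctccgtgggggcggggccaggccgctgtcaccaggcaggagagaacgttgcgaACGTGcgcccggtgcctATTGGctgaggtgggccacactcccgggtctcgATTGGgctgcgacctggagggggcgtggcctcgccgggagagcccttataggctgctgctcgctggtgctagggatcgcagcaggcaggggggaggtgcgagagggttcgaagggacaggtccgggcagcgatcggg
Pdcd4, first start site, chr19:53891981-53892230, plus strand: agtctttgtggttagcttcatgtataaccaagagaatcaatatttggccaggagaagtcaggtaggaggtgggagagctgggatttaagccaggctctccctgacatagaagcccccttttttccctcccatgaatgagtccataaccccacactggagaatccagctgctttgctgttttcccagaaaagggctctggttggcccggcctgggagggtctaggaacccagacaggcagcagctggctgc
Pdcd4, second start site, chr19:53903101-53903350, plus strand: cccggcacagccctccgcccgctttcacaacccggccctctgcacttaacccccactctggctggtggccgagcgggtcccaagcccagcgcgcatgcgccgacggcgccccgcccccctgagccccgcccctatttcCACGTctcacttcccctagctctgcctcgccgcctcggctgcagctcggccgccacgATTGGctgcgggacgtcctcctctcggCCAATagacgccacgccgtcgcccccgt
The motifs, searched on both strands, were CCAAT (the CCAAT box; ATTGG on the other strand), ACGTG (the core of the hypoxia response element; CACGT on the other strand), TGATGNAA (the composite element bound by ATF4), TGTTTAC (a FoxO element) and TATAAA (the TATA box). No match of these overlaps another in the 3 sequences.

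The Ddit4 sequence held CCAAT at -170 and -137 and ACGTG at -187, counted from the RefSeq start site. The sequence before the second Pdcd4 start held CCAAT at -55 and -28 and ACGTG at -112, and the one before the first start held none of the 5 motifs. The counts table does not separate the start sites. CCAAT was found in 33.9% and ACGTG in 16.6% of all 32851 RefSeq promoter sequences of that length. The ATF4, FoxO and TATA letters were in none of the 10 sequences of the members, and in 3.45, 3.17 and 12.4% of all. Among the members, CCAAT also stood before Sesn2, Sesn3 and both starts of Sesn1, and ACGTG before Eif4ebp2. The GC content was 70.0% before Ddit4, 52.8% and 72.4% before the starts of Pdcd4, and 52.4% at the median of all.

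**Figure D2:**
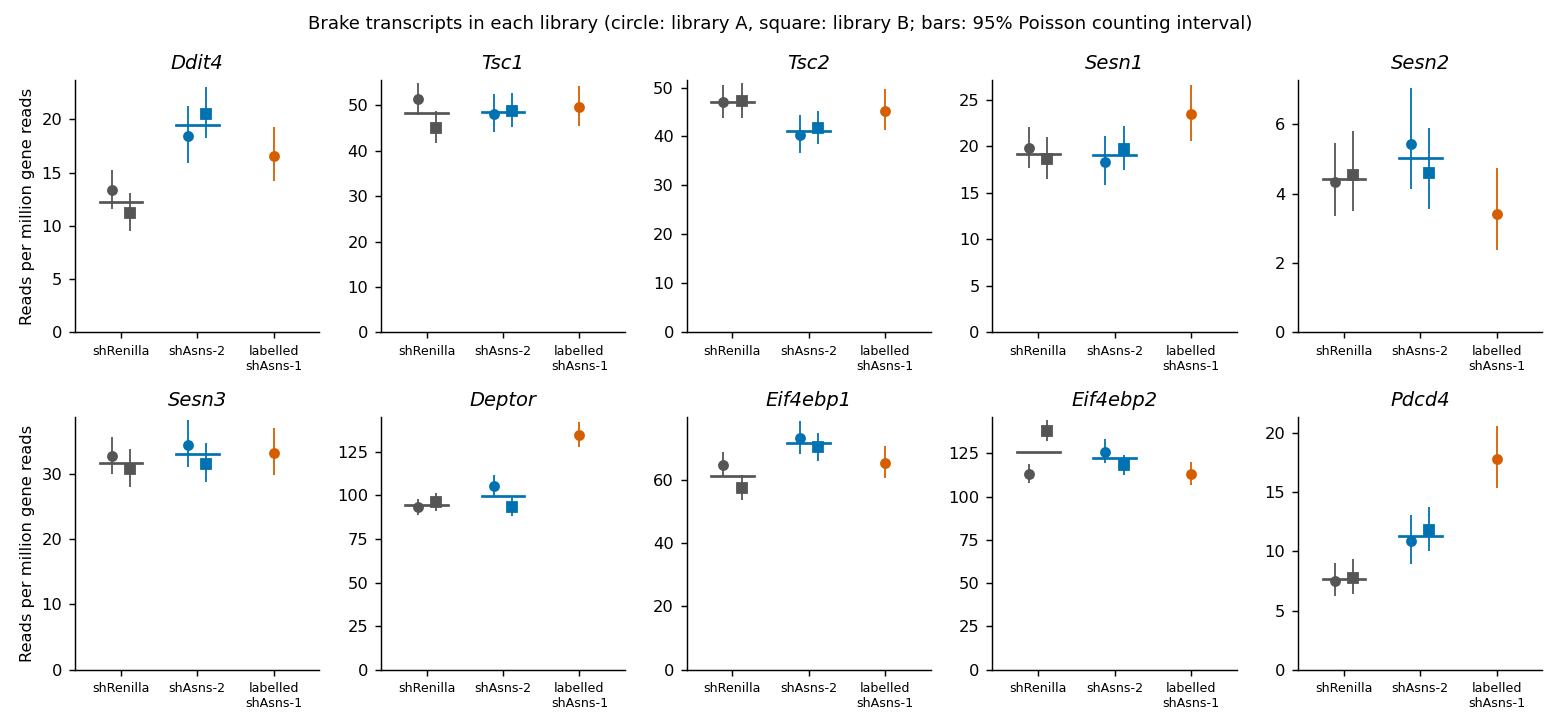
Reads per 1000000 gene reads of each of the 10 transcripts by hairpin; points are libraries, horizontal lines the mean of 2 libraries, and vertical bars 95% exact Poisson intervals that cover counting error only. Ddit4 and Pdcd4 are above both shRenilla libraries in all other libraries, Deptor is high in the library labelled shAsns-1 (135 CPM), and Eif4ebp2 is high in shRenilla B (138 CPM).

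None of the 8 members not picked for their levels was called in shAsns-2 against shRenilla. Calls are edgeR's, at an adjusted p under 0.05, and comprised 8 of 12457 genes (0.0642%) in this comparison, all of them higher. DESeq2 and limma-voom called 0 of the 8 members too. All 3 tools gave 1 of them an unadjusted p under 0.05 (Eif4ebp1), but they used the same libraries. Over all genes that threshold gave 696 up and 504 down in edgeR, 271 and 145 in DESeq2, and 715 and 467 in limma-voom. In the library labelled shAsns-1 against shRenilla, 1 of the 8 was called, Deptor, beside 4.37% of all genes. Between shAsns-2 and that library 0 of the 8 were called, where 1.33% of all genes were higher and 0.811% lower in shAsns-2. At an unadjusted p under 0.05, 1 of the 8 was lower there, Deptor, in all 3 tools. Of all 12457 genes, 983 were lower at that threshold in edgeR, 398 in DESeq2 and 1004 in limma-voom. Counting all 10 by CPM, 4 stood above both shRenilla libraries in both shAsns-2 libraries (Ddit4, Sesn2, Eif4ebp1 and Pdcd4) and 1 below (Tsc2), where 16.6% and 25.8% of all genes did. The library labelled shAsns-1 was above both for 6 members and below both for 2, where 38.8% and 36.7% of all genes were. These counts include the 2 picked genes, which were above by selection, so they cannot be read against the shares of all genes. Among the 8 others, Sesn2 and Eif4ebp1 were above in shAsns-2. Sesn1, Sesn3, Deptor and Eif4ebp1 were above in the library labelled shAsns-1. The median log2 fold change of the 8 was 0.06 in shAsns-2 and 0.04 in the library labelled shAsns-1, and -0.0014 and -0.00901 over all 12457.

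**Figure D3:**
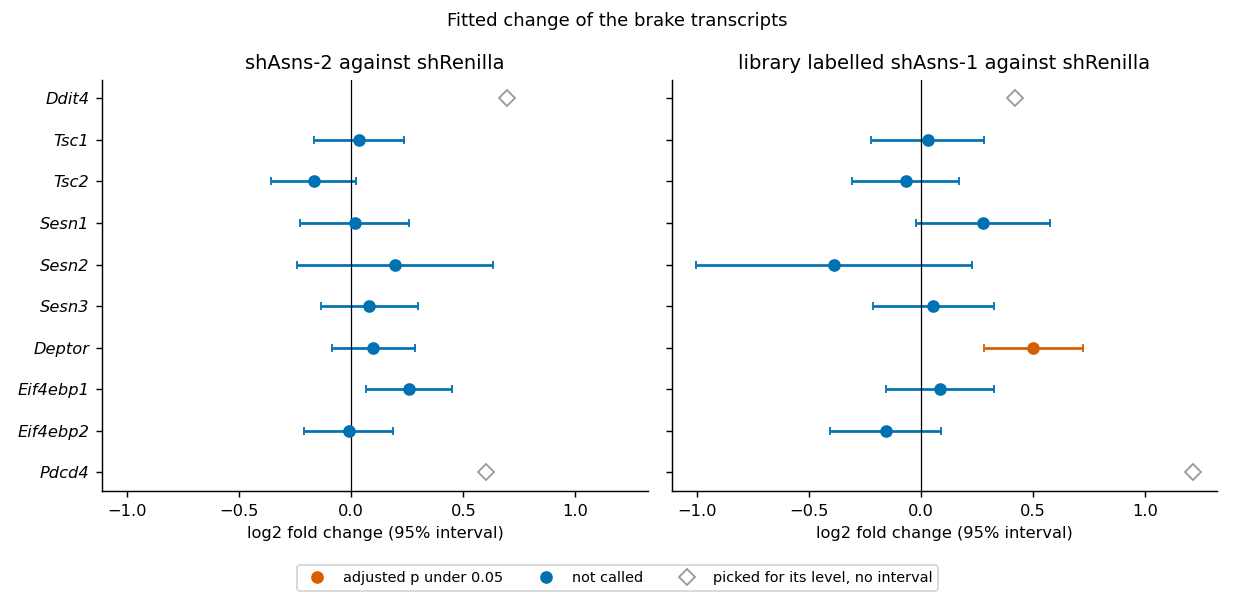
Fitted log2 fold change against shRenilla for shAsns-2 (left) and the library labelled shAsns-1 (right); bars are 95% intervals of the edgeR fit, and open diamonds are the 2 genes picked for their levels, drawn without one. Deptor in the right panel (0.50) is the only tested member called, and Sesn2 has the widest interval in both panels.

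Tsc1 (hamartin) and Tsc2 (tuberin) form the complex that turns Rheb off, with Tsc2 as its catalytic subunit. Their genes lie at chr2:28641228-28691167 (Tsc1, plus strand) and chr17:24595816-24632630 (Tsc2, minus strand) in GRCm38. Tsc1 stood at 51.3 CPM in shRenilla A, 45.1 in shRenilla B, 48.1 in shAsns-2 A, 48.8 in shAsns-2 B and 49.7 in the library labelled shAsns-1. The other 3 libraries lay between those of shRenilla. The log2 fold change was 0.03 (SE 0.0950, adjusted p = 0.936) in shAsns-2 and 0.03 in the library labelled shAsns-1 (adjusted p = 0.921).

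Tsc2 stood at 47.0 CPM in shRenilla A, 47.2 in shRenilla B, 40.4 in shAsns-2 A, 41.8 in shAsns-2 B and 45.3 in the library labelled shAsns-1. Both shAsns-2 libraries were below both shRenilla libraries, as for 25.8% of all genes. The log2 fold change was -0.17 (SE 0.0902, interval -0.36 to 0.02, adjusted p = 0.572) in shAsns-2 and -0.07 (adjusted p = 0.796) in the library labelled shAsns-1. Tsc2 shares 693 exon bases (7.20% of its own) with Pkd1 on the other strand, and reads from there cannot be assigned without strand information. Per length, Tsc1 stood at 0.777 to 0.888 of Tsc2 in shRenilla, at 0.950 to 0.969 in shAsns-2 and at 0.892 in the library labelled shAsns-1.

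The sestrins hold back mTORC1 through the GATOR complexes, and Sesn2 is also a sensor of leucine. Sesn1 lies at chr10:41809935-41908424 (plus strand), Sesn2 at chr4:132492032-132510501 (minus strand) and Sesn3 at chr9:14275067-14333101 (plus strand). Sesn2 had the fewest reads of the members, 35 to 69 reads a library. It stood at 4.32 CPM in shRenilla A, 4.55 in shRenilla B, 5.44 in shAsns-2 A, 4.61 in shAsns-2 B and 3.42 in the library labelled shAsns-1. The Poisson intervals of all 5 libraries overlapped. Its log2 fold change was 0.20 in shAsns-2 (interval -0.24 to 0.63, adjusted p = 0.797) and -0.39 in the library labelled shAsns-1 (SE 0.291, adjusted p = 0.508). The shAsns-2 value was 0.08 without shAsns-2 A and 0.33 without shAsns-2 B. The shAsns-2 interval is wide at this depth, so the lack of a call does not show that Sesn2 was unchanged.

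Sesn1, a sestrin best known as a target of p53 and FoxO factors, stood at 19.7 CPM in shRenilla A, 18.6 in shRenilla B, 18.3 in shAsns-2 A, 19.7 in shAsns-2 B and 23.4 in the library labelled shAsns-1. That library was the highest, but its log2 fold change of 0.28 (SE 0.141) did not pass (adjusted p = 0.299). In shAsns-2 the value was 0.02 (SE 0.115, adjusted p = 0.972). Sesn3 was the steadiest sestrin, at 30.8 to 34.5 CPM over the 5 libraries, with log2 fold changes of 0.08 (adjusted p = 0.839) and 0.05 (adjusted p = 0.861). The former was 0.02 without shAsns-2 A and 0.15 without shAsns-2 B. Of the summed sestrin RPKM, Sesn1 made up 54.6 to 59.4% in shRenilla and shAsns-2 and 65.0% in the library labelled shAsns-1, and Sesn2 made up 14.9 to 18.6% and 10.9%. These shares rest on the annotated exon lengths.

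Deptor, a protein that binds mTOR directly and inhibits its kinase, was higher in the library labelled shAsns-1. Its gene lies at chr15:55112317-55259271 on the plus strand. Deptor stood at 93.2 CPM in shRenilla A, 96.1 in shRenilla B, 105.6 in shAsns-2 A, 93.5 in shAsns-2 B and 135.0 in the library labelled shAsns-1 (interval 128.0 to 142.3). That library was above every other one, and its interval overlapped no other library's value. It rose 1.41-fold there (95% interval 1.21 to 1.65; log2 fold change 0.50, SE 0.104, adjusted p = 0.0114, edgeR), and in 10 of 10 alternative settings it was called, with adjusted p-values of 0.00104 to 0.0484. The test takes the spread of this single library from the other groups. The same library carries the high Asns, the GC trend and the lower sum of epithelial markers, in which Krt18 had no part. With the GC trend removed Deptor's log2 fold change was 0.46 (adjusted p = 0.0303), and the part of the other features in it was not tested.

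In shAsns-2, Deptor had a log2 fold change of 0.10 (SE 0.0867, interval -0.08 to 0.28, adjusted p = 0.749), which was 0.00566 without shAsns-2 A and 0.19 without shAsns-2 B. The difference between shAsns-2 and the library labelled shAsns-1 was -0.40 (SE 0.105) and missed the threshold (adjusted p = 0.0569, where 2.14% of all genes were called). Over 10 alternatives its adjusted p ran from 0.0232 to 0.388, under the threshold in 3. One of them left out shRenilla B (-0.40, adjusted p = 0.0284). A stretch of 303 bases of Deptor exon (3.41%) is shared with the antisense transcript Gm9920, which had 27 reads over all libraries.

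The 4E-BPs bind eIF4E and block the assembly of the cap-binding complex until mTORC1 phosphorylates them. Eif4ebp1 lies at chr8:27260329-27276674 (plus strand) and Eif4ebp2 at chr10:61428491-61452661 (minus strand). Eif4ebp1 stood at 64.7 CPM in shRenilla A, 57.4 in shRenilla B, 73.1 in shAsns-2 A, 70.2 in shAsns-2 B and 65.4 in the library labelled shAsns-1. Both shAsns-2 libraries were above both shRenilla libraries, as for 16.6% of all genes. Eif4ebp1 had a log2 fold change of 0.26 there (SE 0.0907, 1.19-fold, interval 1.05 to 1.36), with an unadjusted p of 0.0118 and an adjusted p of 0.377. It was 0.36 without shRenilla A and 0.17 without shRenilla B. In the library labelled shAsns-1 it was 0.09 (adjusted p = 0.736).

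Eif4ebp2 stood at 113.4 CPM in shRenilla A, 138.0 in shRenilla B, 126.1 in shAsns-2 A, 118.1 in shAsns-2 B and 113.4 in the library labelled shAsns-1. The shRenilla libraries held both the lowest and the highest value, so no difference between the labelled groups exceeded the spread within the control. The log2 fold change was -0.01 (SE 0.0936, adjusted p = 0.974) in shAsns-2 and -0.16 (SE 0.117, adjusted p = 0.5) in the library labelled shAsns-1. Without shRenilla A or shRenilla B, the shAsns-2 value was -0.14 or 0.13. Per length, Eif4ebp2 stood at 0.639 to 0.665 of Eif4ebp1 in 4 libraries and at 0.913 in shRenilla B. In shRenilla B, Eif4ebp1 was the lowest of the 5 and Eif4ebp2 the highest.

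The rest of the pathway was described by 7 lists with 95 genes in the table, of which 88 passed the filter. In shAsns-2, 0 of the 88 were called by edgeR, DESeq2 or limma-voom, beside 0.0642% of all genes in edgeR. At an unadjusted p under 0.05 edgeR gave 4 up and 3 down, DESeq2 2 up and 1 down, and limma-voom 4 up and 3 down. Over all 12457 genes that threshold gave 696 up and 504 down in edgeR, 271 and 145 in DESeq2, and 715 and 467 in limma-voom. The median log2 fold change of the 88 was -0.00305, and -0.0014 over all genes. In the library labelled shAsns-1, 2 of the 88 rose and 1 fell, beside 2.31% higher and 2.06% lower of all genes. The median there was -0.03, against -0.00901 over all genes.

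The kinase complexes had 7 tested genes and 0 calls in either comparison. Mtor, the kinase, had log2 fold changes of 0.09 in shAsns-2 and 0.02 in the library labelled shAsns-1. Rptor, the subunit that recruits mTORC1 substrates, had 0.08 and -0.12, and Rictor, which defines mTORC2, had -0.00126 and -0.11. The arm from insulin to Rheb had 12 tested genes and 0 calls against shRenilla, with Akt1, the kinase that inactivates Tsc2, at 0.01 and -0.14. Irs1, an adaptor of the insulin receptor, was at -0.49 in the library labelled shAsns-1 (adjusted p = 0.0563) and was called between shAsns-2 and that library (0.58, SE 0.140, adjusted p = 0.0416). Irs1 was not called there by DESeq2 or limma-voom, with the GC trend removed, or without shRenilla A or either shAsns-2 library. Grb10 had 0 reads in all 5 libraries, which allows up to 0.188 to 0.293 CPM by library (3 reads).

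Of 25 tested genes of the amino acid arm, which places mTORC1 on the lysosome, 1 rose in the library labelled shAsns-1 and 0 were called in shAsns-2. It was Bmt2, a sensor of S-adenosylmethionine also called SAMTOR, at 68.4 CPM in shRenilla A, 69.2 in shRenilla B, 72.7 in shAsns-2 A, 74.7 in shAsns-2 B and 92.1 in the library labelled shAsns-1 (log2 fold change 0.41, SE 0.101, adjusted p = 0.0293). It was not called by DESeq2, nor without shRenilla A or either shAsns-2 library. The Rag GTPase Rraga was at 0.18 in shAsns-2 (unadjusted p 0.0388, adjusted p = 0.492) and 0.21 in the other library, and Rragc at 0.03 and 0.11. Rragb had 0 reads in every library. The 6 tested genes of AMPK, the energy sensor that activates Tsc2, held 0 calls, with Prkaa1, its catalytic subunit, at -0.06 and 0.11.

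Among 14 genes of S6 kinases and cap-binding factors, 0 were called in shAsns-2 and 1 fell in the library labelled shAsns-1. It was Eif4g1, the scaffold that 4E-BPs displace from eIF4E, at 662 CPM in shRenilla A, 702 in shRenilla B, 582 in shAsns-2 A, 599 in shAsns-2 B and 524 in the library labelled shAsns-1 (log2 fold change -0.39, SE 0.0964, adjusted p = 0.0294). It was not called without either shAsns-2 library. In shAsns-2 its value was -0.18 (unadjusted p 0.0331, adjusted p = 0.467). Eif4a1, the helicase that Pdcd4 binds, was at 0.24 in shAsns-2 (adjusted p = 0.423). Its control libraries stood apart, at 976 and 795 CPM. Rps6, the substrate of S6 kinase, stood at 440 CPM in shRenilla A and 645 CPM in shRenilla B and at 429 CPM in both shAsns-2 libraries. Its log2 fold change was -0.31 (adjusted p = 0.428), and without shRenilla A it was -0.55 and called (adjusted p = 0.0326). Rps6kb1, which encodes S6 kinase, was at 0.04, and Eif4e at -0.05.

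Of 9 tested genes among other translation brakes and paralogs, Paip2 rose in the library labelled shAsns-1. Paip2 inhibits the poly(A)-binding protein Pabpc1. It stood at 78.2 CPM in shRenilla A, 82.1 in shRenilla B, 81.5 in shAsns-2 A, 81.7 in shAsns-2 B and 111.9 in the library labelled shAsns-1 (log2 fold change 0.47, SE 0.0990, adjusted p = 0.0124), and shAsns-2 was lower than that library (-0.42, SE 0.0999, adjusted p = 0.0396). The latter call was lost in DESeq2, with the GC trend removed and without either shAsns-2 library. Pabpc1 was at -0.25 in that library (adjusted p = 0.162). Ddit4l, a paralog of Ddit4, had at most 0.293 CPM in any library. With the GC trend removed, 0 of the 3 pathway genes called in the library labelled shAsns-1 stayed called.

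The last list held 15 stress factors and targets that share inducers with Ddit4 and the sestrins, and 0 were called against shRenilla by edgeR. At an unadjusted p under 0.05, 2 were higher in each comparison. Of all 12457 genes, 696 were higher at that threshold in shAsns-2 and 1250 in the library labelled shAsns-1. The median log2 fold change of the list was 0.09 in shAsns-2 and 0.12 in the library labelled shAsns-1. Atf4, the factor of the amino acid response, was at 0.13 and -0.01, and Hif1a, the oxygen-regulated subunit of HIF, at -0.04 and 0.12. Chac1, an ATF4 target that breaks down glutathione, stood at 15.4 CPM in shRenilla A, 16.6 in shRenilla B, 26.1 in shAsns-2 A, 22.8 in shAsns-2 B and 13.8 in the library labelled shAsns-1. Only the shAsns-2 libraries were above the control (0.64, SE 0.119, adjusted p = 0.0642), and they were above the library labelled shAsns-1 (0.86, SE 0.162, adjusted p = 0.00922), though not past the threshold without shAsns-2 A. Chac1 was called in shAsns-2 once the filter on low counts was dropped (0.63, adjusted p = 0.000245) and when the letters A and B entered as a replicate block (0.64, adjusted p = 0.000174). Tsc22d3 was at 0.63 in shAsns-2 and 0.77 in the library labelled shAsns-1, from 2.82 and 3.22 CPM in shRenilla A and B, and was not called in either. It was named after its values were seen, so they are a description and do not stand for the other genes of the list.

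**Figure D4:**
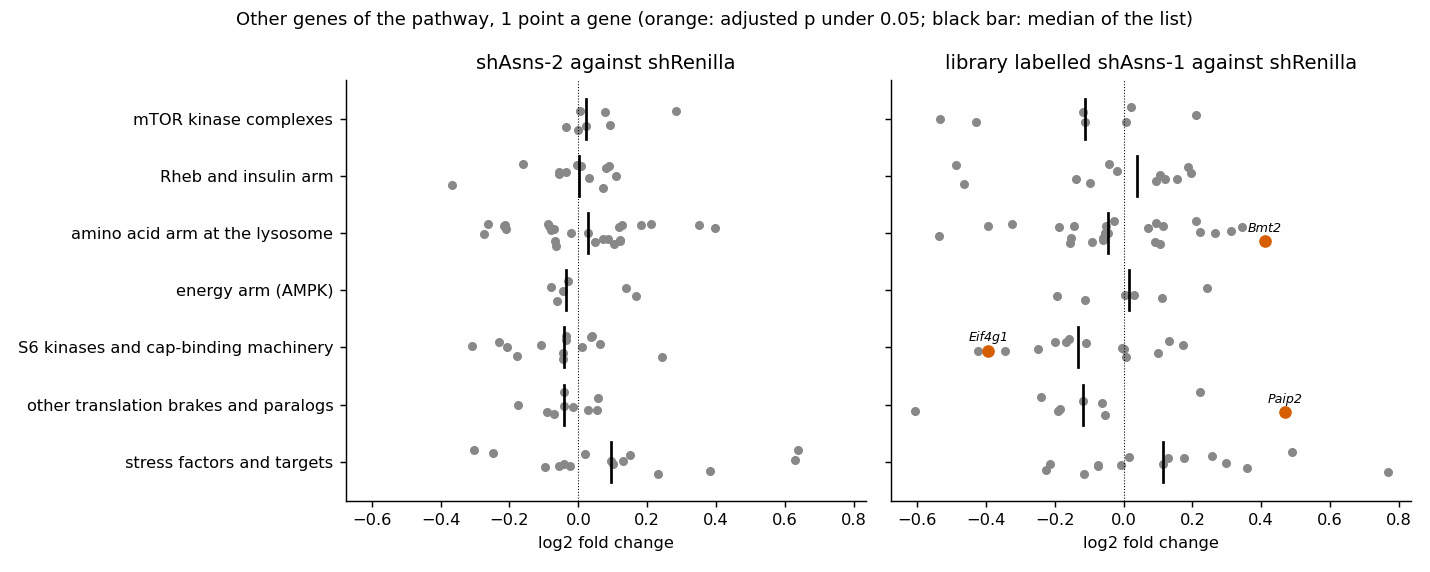
Log2 fold changes of the 88 tested pathway genes by list, for shAsns-2 (left) and the library labelled shAsns-1 (right) against shRenilla, with 1 point a gene and a black bar at each median. No point in the left panel passed the test, and Bmt2 (0.41), Paip2 (0.47) and Eif4g1 (-0.39) did in the right panel.

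Genes with a pattern like that of Ddit4 or Pdcd4 over the 5 libraries were found by the root mean square distance of log2 CPM centred on each gene's mean, among 8550 named genes. For Ddit4 the nearest were Slc2a9, a urate transporter (distance 0.103), the neurotrophin receptor Ngfr (0.125), Gid4, a substrate receptor of a ubiquitin ligase (0.127), Tmem170b (0.131) and Nrbp2 (0.133), against a median distance of 0.343. Slc2a9 stood at 22.4 CPM in shRenilla A, 16.2 in shRenilla B, 27.7 in shAsns-2 A, 28.5 in shAsns-2 B and 27.1 in the library labelled shAsns-1. It shared with Ddit4 a shRenilla B level below that of shRenilla A.

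For Pdcd4 the nearest were Mgp, an inhibitor of calcification (distance 0.0782), the endopeptidase Phex (0.121), the cytokine Tslp (0.131), the integrin chain Itgb2 (0.144) and Sord, sorbitol dehydrogenase (0.150), against a median of 0.461. Mgp stood at 9.03 CPM in shRenilla A, 8.75 in shRenilla B, 14.0 in shAsns-2 A, 14.4 in shAsns-2 B and 19.8 in the library labelled shAsns-1. Phex stood at 88.0, 97.8, 122.8, 125.6 and 241 CPM in the same order. These distances describe 5 libraries only and carry no test. The neighbours of Ddit4 and of Pdcd4 were chosen for likeness over these same libraries, so the patterns they share follow from the choice.

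**Figure D5:**
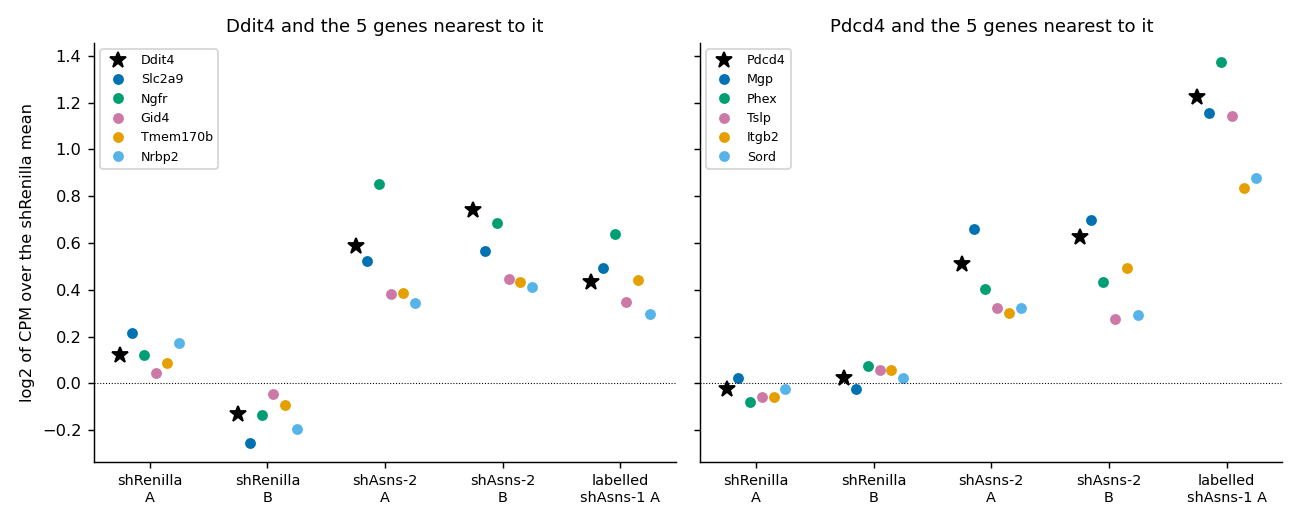
Log2 of CPM over the mean of the shRenilla libraries for Ddit4 (left) and Pdcd4 (right, both as stars) and for the 5 genes nearest to each, by library. All these genes lie above the shRenilla mean in the other 3 libraries, and Pdcd4 and its neighbours are highest in the library labelled shAsns-1. The neighbours were chosen for likeness over these same libraries, so the shared pattern follows from the choice.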

How the data were processed

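The authors deposited whole-number read counts per gene for 6 libraries. The submitters' processing notes name Bowtie2, HTSeq and build mm10, without versions; the annotation and the use of strand in counting are not described there or in the labels. Per the labels, RNA was extracted with Trizol and libraries were made with the Nugen Ovation RNAseq V2 kit. The 5 tally rows stayed out of library sizes and tests (reads in no feature were 36.1 to 38.3% of all). The fit was planned for 6 libraries and used 5, with 2 residual degrees of freedom.

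The model was edgeR 4.0.16's glmQLFit and glmQLFTest (R 4.3.3) over the 3 hairpin groups, after filterByExpr and TMM (factors 0.983 to 1.01), with Benjamini-Hochberg adjustment over 12457 genes. It was run on simulated counts with the same dispersion for every gene, scored for shAsns-2 against shRenilla only. That run cannot speak for the comparisons with the library labelled shAsns-1. The common dispersion of the model gave a coefficient of variation of 6.23%. Fold changes come from the model, whereas CPM and RPKM use total gene reads and GENCODE M21 exon lengths (GRCm38). The alternatives were DESeq2 1.42.0, limma-voom (limma 3.58.1), RLE factors, no filter on low counts, a replicate block and leaving out each library; removing the GC trend was added after seeing the data. The members and lists were chosen with earlier results of these data known. Pathway genes are named when called in a comparison or among the 4 of highest RPKM in their list; Grb10, Rragb, Ddit4l, Eif4e, Rps6kb1 and Tsc22d3 were added after their values were seen. One pathway gene is not reported here.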

Additional observations from a re-analysis of the deposited data

How the results depend on the processing

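Of 310 values of the members under alternatives, 293 kept their direction and side of the threshold, 3 were newly called (Deptor between shAsns-2 and the library labelled shAsns-1, with no filter on low counts, with the replicate block and without shRenilla B), 13 changed sign and 1 picked gene moved by more than its SE (Ddit4 in shAsns-2 without shRenilla A, 0.84). The sign changes were all of uncalled values near 0. Leaving out a library in turn, the log2 fold change of shAsns-2 against shRenilla ran from -0.0621 to 0.143 for Tsc1, from -0.0331 to 0.0710 for Sesn1 and from -0.140 to 0.125 for Eif4ebp2, in each case with the highest or the lowest value on leaving out shRenilla A. In the library labelled shAsns-1 it ran from -0.0666 to 0.138 for Tsc1 and from -0.00504 to 0.186 for Eif4ebp1. Between shAsns-2 and that library it ran from -0.00198 to 0.00984 for Tsc1 and from -0.0393 to 0.0945 for Sesn3. Against shRenilla, the replicate block turned Tsc1 to -0.0174 and Sesn3 to -0.00244 in the library labelled shAsns-1, and removing the GC trend turned Tsc2 to 0.0107 there and Tsc1 to -0.0398 between shAsns-2 and that library. Over all 310, 11 values moved by more than the SE of the reported value, all 11 on leaving out a library (Ddit4 once, the others of Deptor, Tsc1, Eif4ebp1 and Eif4ebp2). The calls over all genes were less stable. For shAsns-2 against shRenilla, 8 genes were called, with 114 under no filter on low counts, 178 with a replicate block, 3 with the GC trend removed and 0 to 47 when a library was left out (0 without shAsns-2 A or shRenilla B, 47 without shRenilla A). The pathway count there, 0, became 2 under no filter (Rps6 and Chac1), 1 with the block (Chac1) and 0 to 1 on leaving out a library. In the comparison of the library labelled shAsns-1 with shRenilla, 544 genes became 253 in DESeq2, 919 under no filter, 924 with the block, 347 with the GC trend removed and 290 to 825 on leaving out a library (290 without shAsns-2 A, 302 without its B, 825 without shRenilla B). Its 3 pathway genes became 7 under no filter, 7 with the block, 0 with the GC trend removed and 1 to 6 on leaving out a library. Between shAsns-2 and the library labelled shAsns-1, 267 genes became 156 in DESeq2, 608 under no filter, 875 with the block, 136 with the GC trend removed and 58 to 642 on leaving out a library (58 without shAsns-2 A, 108 without its B, 642 without shRenilla B). There 0 members became 1 under no filter and with the block and 0 to 1 on leaving out a library, and 3 pathway genes became 5, 8, 1 (GC trend removed) and 0 to 6. The causes of these changes were not tested. The letters A and B are not stated to pair the libraries: the A minus B differences of shAsns-2 and shRenilla correlated at 0.0521 across 5604 genes. Where a library is left out, a group of 1 library takes its spread from the others. Depth limits Sesn2 most, at 35 to 69 reads a library.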
